A study of Mus musculus with 8 samples.

Results

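The genes described here act in the tooth germ and in enamel and dentin formation. They are Ambn, Amelx, Enam, Mmp20, Sp6, Eda, Edar and Dspp, and they were read in palatal shelves of mouse embryos at embryonic day 14.5. They were read on every probe set, a group of short probes for a transcript, that the array annotation pairs with exactly one of these 8 symbols. There were 18 such probe sets among 45037 on the array, for 8 of the 18193 symbols it names. The 8 arrays, one per sample, fell into 4 of genotype R26Pax3/Pax3 and 4 of wild type littermates, all on a mixed background of C57BL/6 and SV129. R26Pax3 is an allele that expresses the transcription factor Pax3 from the Rosa26 locus. The labels name no Cre driver, no sex and no number of embryos per sample, so it is not known which cells of the shelves carried the extra Pax3, and the p-values cover no more than the spread among the samples. The shelves are bulk tissue, in which fewer cells of a type cannot be told apart from less RNA per cell.

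Enamel is laid down by ameloblasts, the innermost cells of the dental epithelium, which secrete a matrix of amelogenin, ameloblastin and enamelin that proteases later remove. Before that stage the dental epithelium folds around a mesenchymal papilla whose outer cells become odontoblasts and secrete dentin. The shape and number of teeth depend on the ectodysplasin pathway, in which the ligand Eda binds its receptor Edar and activates NF-kB through the adaptor Edaradd. In the mouse at this age the molar germs are at the cap stage and no enamel has been secreted. The germs lie beside the palatal shelves, and the labels do not say whether dissected shelves held any of them.

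The genotypes were first checked on Pax3. On its brightest probe set the mutant arrays averaged 619 ± 88.8 and the wild type arrays 162 ± 14.6 (mean ± SD, n = 4 per genotype), a difference of 1.83 on the log2 scale (limma SE 0.113, adjusted p = 1.59e-05). Another probe set, 1430335_a_at, gave 1.96 (limma adjusted p = 0.000106), while the third, 1441743_at, was not called, with 82.5 ± 21.5 in mutant arrays against 103 ± 14 (log2 fold change -0.29, limma adjusted p = 1). The median signal of an array lay between 43.5 and 44.9, and correlations between arrays lay between 0.974 and 0.982. Markers of palatal mesenchyme were read to check the tissue, and 12 of 12, among them Osr2 and Tbx22, lay above the array median on all 8 arrays. Of all 27022 probe sets tested, 4 passed an adjusted p of 0.05, which is 0.0148%.

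Most of the tooth genes were dim in these shelves. Of the 18 probe sets, 13 lay below the median of their array on all 8 arrays, against 43.4% of all probe sets on the array. All probe sets of Amelx, Enam, Mmp20, Edar and Dspp were among these 13. Ambn and 1 probe set of Eda lay above the median on all 8 arrays, and another 2 probe sets of Eda and 1 of Sp6 lay above it on some arrays. Detection calls were not used here, so a value below the median cannot be told from background. No size of difference is therefore given for the 13 probe sets below it throughout. Those of Sp6 1437788_at and Eda 1451925_at rest partly on such values, below the median on 4 and 6 of the 8 arrays.

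**Figure D1:**
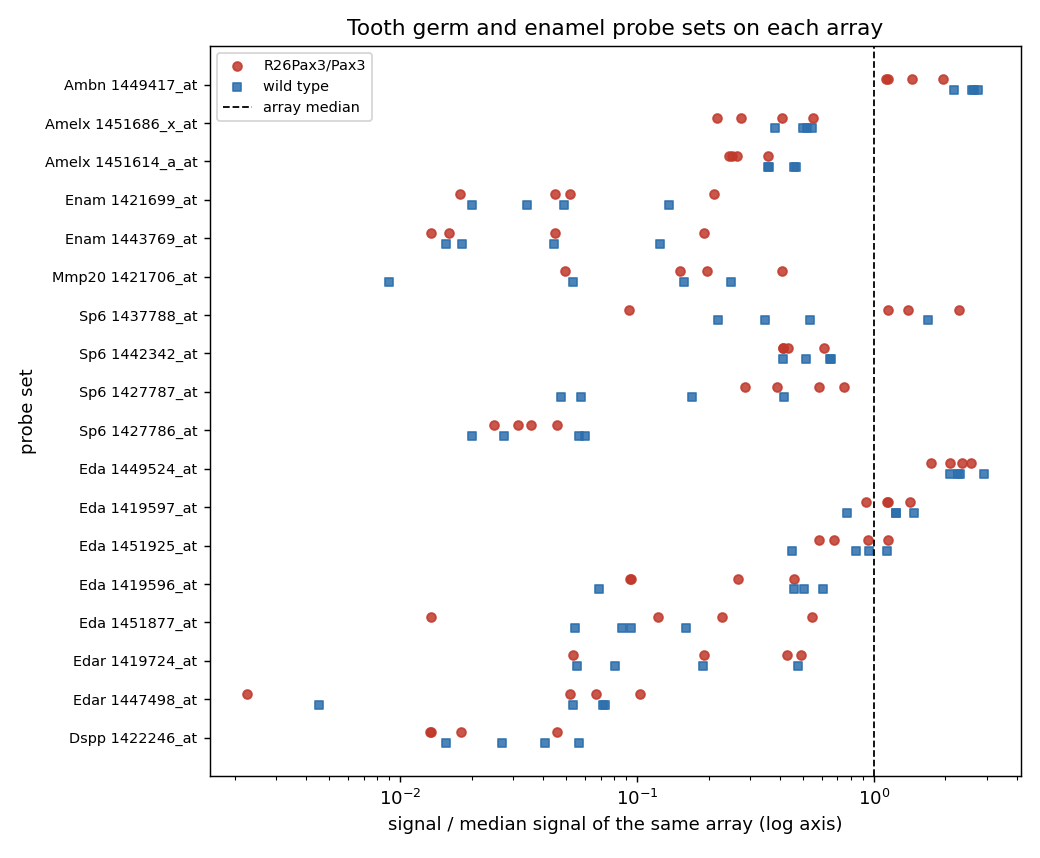
Signal of each of the 18 probe sets divided by the median signal of the same array, on a log axis, with 1 point per array (circles, R26Pax3/Pax3; squares, wild type) and a dashed line at the array median. Ambn lies to the right of the line on all 8 arrays with its groups apart, while 13 probe sets lie to the left of it throughout.

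Among these genes Ambn stood lower in R26Pax3/Pax3 without passing the test over all probe sets, and Eda and Sp6 showed no separation. A filter that kept the probe sets whose mean exceeded the 40th percentile passed 5 of the 18 for testing, namely 1 of Ambn, 1 of Sp6 and 3 of Eda. None of the 5 was called in limma (0 of 5, with 1 of 5 at an unadjusted p under 0.05), beside 0.0148% called and 4.86% at an unadjusted p under 0.05 over all probe sets tested. Their median log2 fold change was -0.02, and that of all probe sets tested was 0.00. Of the 5, 2 were higher and 3 lower in R26Pax3/Pax3, where 49.7% of all probe sets tested were lower. The remaining 13 probe sets are given as values without a test.

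Because the promoters of these genes differ in kind, the stretch of 150 bases before the start site is shown for Ambn, the member whose groups stood apart, for Enam, its neighbour on chromosome 5, and for Eda, the other gene above the array median throughout. The sequences are from RefSeq on build GRCm38.p6, 5′ to 3′ on the plus strand, and capitals mark each CG. The window of Ambn is chr5:88455841-88455990, that of Enam is chr5:88487825-88487974 and that of Eda is chrX:99975456-99975605.
Ambn: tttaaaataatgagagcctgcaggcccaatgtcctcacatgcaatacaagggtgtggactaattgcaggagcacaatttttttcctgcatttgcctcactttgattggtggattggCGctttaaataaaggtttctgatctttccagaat
Enam: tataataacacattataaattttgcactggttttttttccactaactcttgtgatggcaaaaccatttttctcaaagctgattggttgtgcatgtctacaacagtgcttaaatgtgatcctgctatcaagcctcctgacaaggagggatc
Eda: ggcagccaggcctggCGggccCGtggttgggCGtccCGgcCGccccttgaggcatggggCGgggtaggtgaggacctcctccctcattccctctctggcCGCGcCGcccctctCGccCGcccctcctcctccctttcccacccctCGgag
These windows hold 1 CG for Ambn, 0 for Enam and 12 for Eda.

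RefSeq promoter windows of 300 bases, from 250 before to 50 after the start site, were matched for 6 of the 8 genes. The 4 genes of enamel matrix and its processing had the lower GC contents, with 41.7% for Ambn, 40% for Amelx, 36.7% for Enam and 46.7% for Mmp20. The median over 32851 such promoters was 52.7%. The ligand and receptor lay above it, with 74.3% for Eda and 58.7% for Edar. The letters TATAAA, searched on both strands, were found once each in Amelx (31 bases before the start site), Mmp20 (58 before) and Enam (137 before), and in 13.6% of all promoters. The core GTCAC, part of the site that the paired domain of Pax3 binds, was found in Mmp20 only among the 6, and in 45.6% of all promoters. The homeodomain palindrome of TAAT and ATTA with any 3 bases between them was in none of the 6 and in 0.487% of all promoters. The core TGTGGT of Runx factors, which act in bone and dental cells, was in none of the 6 and in 16.8% of all promoters. These motifs were searched on both strands. No match says only that these letters are not in these windows.

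Ambn encodes ameloblastin, a matrix protein that holds ameloblasts to the growing enamel and that has also been reported in bone-forming cells. Its probe set, 1449417_at, read 85.2, 50.4, 50.8 and 64.6 in R26Pax3/Pax3 replicates 1, 3, 4 and 7. It read 97.1, 114, 120.1 and 119 in wild type replicates 2, 6, 8 and 11. Every mutant array lay below every wild type array, a separation that 1.35% of all probe sets tested showed in this direction and 2.73% in either. The means were 62.8 ± 16.4 in R26Pax3/Pax3 and 112 ± 10.6 in wild type (mean ± SD, n = 4 per genotype), a ratio of 1.79 of wild type over mutant.

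On the log2 scale with 16 added to each signal, the difference of Ambn was -0.72 (SE 0.151, 95% interval -1.05 to -0.40). Its unadjusted p in limma was 0.000449, the rank 30 of 27022, and its adjusted p was 0.398, so it was not called. The first 4 and the last 4 arrays in the deposited table hold 2 of each genotype, and within them the difference was -0.70 and -0.75. All 8 values lay above the medians of their arrays, the mutant values at 1.12 to 1.96 times it and the wild type values at 2.17 to 2.74 times. The size depends on the pseudocount, at -0.83 with 4 and -0.48 with 64. The array has no other probe set for Ambn, so no second reading within the gene is available.

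**Figure D2:**
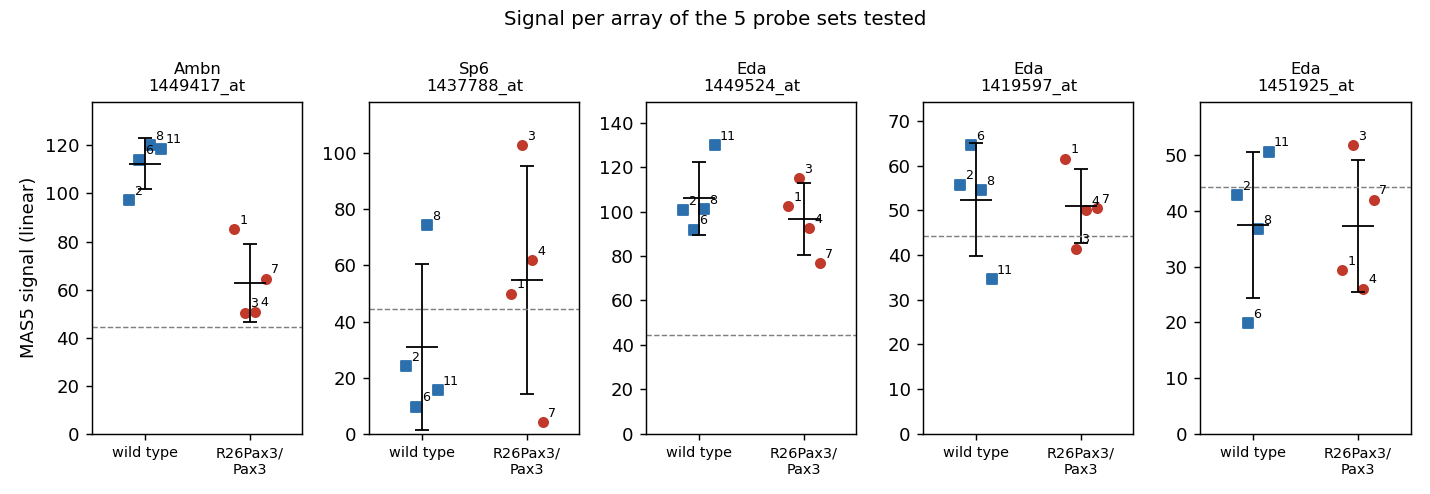
MAS5 signal on a linear axis from 0 for the 5 probe sets tested, with 1 point per array labelled by replicate number, the mean and SD of each genotype (bar and whiskers, n = 4) and the mean array median as a dashed line. For Ambn the highest mutant value, 85.2, lies below the lowest wild type value, 97.1, and in the other panels the genotypes overlap.

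Amelx encodes amelogenin, the most abundant protein of forming enamel, and lies on the X chromosome. Both of its probe sets were below the array median on all 8 arrays. The first, 1451614_a_at, read 10.9, 11, 11.7 and 15.9 in R26Pax3/Pax3 replicates 1, 3, 4 and 7 and 20.9, 15.9, 15.6 and 20.5 in wild type replicates 2, 6, 8 and 11. Mutant replicate 7 thus reached the wild type values, and the other 3 mutant arrays lay below them. The second, 1451686_x_at, ranged from 9.5 to 24.4 in R26Pax3/Pax3 and from 16.8 to 24.1 in wild type, with overlap. Neither passed in limma without the filter (adjusted p = 0.999 each, unadjusted p = 0.0904 and 0.194).

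Enam encodes enamelin, the largest of the enamel matrix proteins, and is the next gene after Ambn on chromosome 5. Its 2 probe sets read between 0.8 and 9.2 and between 0.6 and 8.6 over the 8 arrays, and the genotypes overlapped on both. On the other side of Ambn lies Amtn, which encodes amelotin of late ameloblasts, and it read between 1.7 and 23.1, below the median on all 8 arrays. The genes beyond Enam were Jchain, below the median throughout, and Utp3, with 428 ± 48.5 in R26Pax3/Pax3 and 359 ± 49.7 in wild type (mean ± SD, n = 4 per genotype, log2 fold change 0.25, limma adjusted p = 1). Utp3 was above the array median on all 8 arrays, as were Rufy3 and Grsf1 beyond it, with log2 fold changes of 0.07 and -0.03 (limma adjusted p = 1 each).

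Mmp20 encodes enamelysin, the metalloproteinase that cleaves amelogenin while enamel is being secreted. Its probe set read 8.6, 18.4, 2.2 and 6.7 in R26Pax3/Pax3 replicates 1, 3, 4 and 7 and 2.4, 10.9, 6.9 and 0.4 in wild type replicates 2, 6, 8 and 11. All of these lay below the array median and the genotypes overlapped. Klk4, the protease of maturing enamel, read between 0.5 and 9.2 and was below the median throughout as well.

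Sp6, also called epiprofin, is a zinc finger transcription factor of dental epithelium and hair follicles. Its brightest probe set, 1437788_at, was the most scattered of the 5 tested. It read 50, 103, 61.9 and 4.1 in R26Pax3/Pax3 replicates 1, 3, 4 and 7 and 24.1, 9.7, 74.3 and 15.5 in wild type replicates 2, 6, 8 and 11. Mutant replicate 7 held the lowest value of all and wild type replicate 8 the second highest, so the genotypes overlapped fully.

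The log2 fold change of Sp6 on this probe set was 0.52 (SE 0.498, 95% interval -0.57 to 1.60, limma adjusted p = 1). The interval takes in changes of either direction. Without mutant replicate 7 the difference was 1.04, without wild type replicate 8 it was 0.89, without wild type replicate 6 it was 0.29 and without mutant replicate 3 it was 0.18, none called. The other 3 probe sets of Sp6 lay below the array median on all 8 arrays. Of these, probe set 1427787_at read between 12.6 and 33.5 in R26Pax3/Pax3 and between 2.1 and 18.3 in wild type, with overlap. Its adjusted p in limma without the filter was 0.958, and its unadjusted p was 0.0123.

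Eda encodes ectodysplasin, a ligand of the tumour necrosis factor family whose loss gives mice few and misshapen teeth, and it lies on the X chromosome. Its probe set 1449524_at read 103, 115, 92.6 and 76.7 in R26Pax3/Pax3 replicates 1, 3, 4 and 7 and 101, 91.9, 101 and 129.9 in wild type replicates 2, 6, 8 and 11. The genotypes overlapped, with means of 96.7 ± 16.2 and 106 ± 16.6 (mean ± SD, n = 4 per genotype). The log2 fold change was -0.11 (SE 0.14, 95% interval -0.42 to 0.19, limma adjusted p = 1).

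The signal of Eda also differed in direction between the first and last 4 arrays deposited, at 0.15 and -0.38 on the log2 scale for 1449524_at. For 1451925_at the values were 0.35 and -0.34, and for 1419597_at they were -0.18 and 0.14, and the gap between the sets of arrays was not tested. Probe set 1419597_at read 50.9 ± 8.28 in mutant arrays and 52.4 ± 12.7 in wild type arrays, and 1451925_at read 37.3 ± 11.9 and 37.5 ± 13.1 (mean ± SD, n = 4 per genotype). Their log2 fold changes were -0.02 (95% interval -0.38 to 0.35) and 0.00 (95% interval -0.47 to 0.48), with limma adjusted p = 1 each. The 2 remaining probe sets of Eda lay below the array median throughout. Between 1449524_at and 1419597_at Pearson's r was -0.62, between 1419597_at and 1451925_at it was -0.77, and between 1449524_at and 1451925_at it was 0.48, given as a description over 8 arrays that share 2 genotypes.

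**Figure D3:**
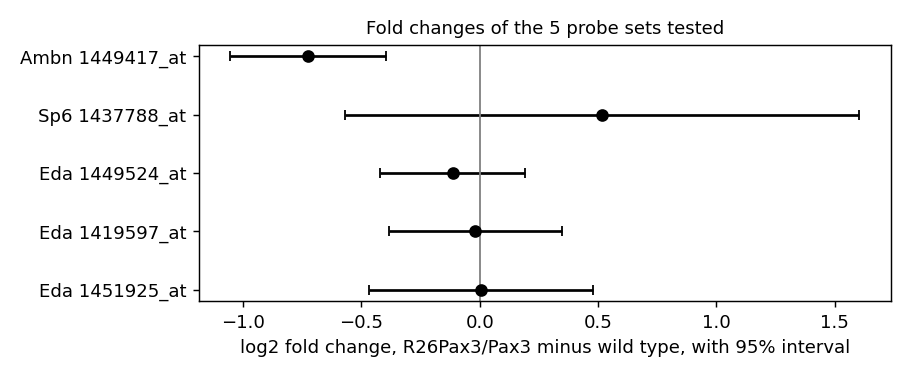
Log2 fold change (R26Pax3/Pax3 minus wild type, on log2 of the signal plus 16) of the 5 probe sets tested, with limma's 95% interval as a horizontal bar and a grey line at 0. The interval of Ambn, from -1.05 to -0.40, lies below 0 before adjustment for all probe sets, and those of Sp6 and of the 3 probe sets of Eda include 0.

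Edar encodes the receptor of ectodysplasin. Its probe set 1419724_at read 18.6, 2.4, 8.5 and 21.7 in R26Pax3/Pax3 replicates 1, 3, 4 and 7 and 2.5, 8.3, 20.9 and 3.6 in wild type replicates 2, 6, 8 and 11, all below the array median. Its second probe set read between 0.1 and 4.5. The intracellular adaptor Edaradd gave a signal above the array median on all 8 arrays on its brightest probe set, with 152 ± 17 in R26Pax3/Pax3 and 150 ± 15.7 in wild type (mean ± SD, n = 4 per genotype, log2 fold change 0.02, limma adjusted p = 1).

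No gene of the ectodysplasin pathway was called. Of 12 genes listed, 10 had a probe set of their own and 9 were tested, 6 higher and 3 lower, with 0 called and 1 at an unadjusted p under 0.05, beside 4.86% over all probe sets tested. Their median log2 fold change was 0.02. The 1 was Tnfrsf19, a receptor related to Edar and also called Troy, with 611 ± 50.6 in R26Pax3/Pax3 and 707 ± 52.4 in wild type (mean ± SD, n = 4 per genotype, log2 fold change -0.21, limma adjusted p = 0.996). Its 2 other probe sets gave -0.33 and -0.31. Map3k7, the kinase TAK1, gave 0.13 and Traf6, which links receptors to it, gave 0.16. Eda2r, the receptor of the A2 form of ectodysplasin, was below the median on all 8 arrays.

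Dspp encodes the precursor of dentin sialoprotein and phosphophoryn, made by odontoblasts. Its probe set read 2, 0.6, 0.6 and 0.8 in R26Pax3/Pax3 replicates 1, 3, 4 and 7 and 1.2, 1.8, 2.5 and 0.7 in wild type replicates 2, 6, 8 and 11. These were among the lowest signals on the array, with a mean at the percentile 0.722 of all probe sets. The genes on either side of it on chromosome 5 were above the array median, while Mepe and Hsd17b13, further along, were below it on all 8 arrays. Dmp1, a phosphoprotein of dentin and bone that lies next to Dspp, read 316 ± 104 in mutant arrays and 558 ± 219 in wild type arrays (mean ± SD, n = 4 per genotype, log2 fold change -0.78, limma adjusted p = 0.905). Sparcl1, a matricellular protein on the other side of Dspp, read 583 ± 29.3 and 505 ± 38.1 with no overlap (log2 fold change 0.20, limma adjusted p = 0.995).

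Genes shared by odontoblasts and bone cells had mostly lower readings in R26Pax3/Pax3. Of 12 listed, 9 had a probe set of their own and 8 were tested. Read by the brightest probe set of each gene, 8 of 8 were lower, with a median log2 fold change of -0.34 against 0.00 over all probe sets tested, of which 49.7% were lower. None was called in limma, and 5 of 8 had an unadjusted p under 0.05, beside 4.86% of all probe sets tested. Over all 20 tested probe sets of these genes 17 were lower and 3 higher, the 3 being 2 of Nfic, a transcription factor needed for tooth roots (0.46 and 0.26), and 1 of the intermediate filament gene Nes (0.21). Within the first 4 arrays deposited 5 of the 8 genes were lower, and within the last 4 all 8 were. Smpd3, a sphingomyelinase needed for mineralisation of bone and teeth, had the smallest p, with 304 ± 19 in mutant arrays against 438 ± 76.6 and no overlap between genotypes (mean ± SD, n = 4 per genotype, log2 fold change -0.49, limma adjusted p = 0.529). Its 2 other probe sets gave -0.40 and -0.30. Phex, an endopeptidase of bone and dentin cells, gave -0.69 (limma adjusted p = 0.599).

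The summed signal of these 9 genes ranged from 12956 to 14628 in R26Pax3/Pax3 and from 15061 to 18931 in wild type. The sum weighs the bright genes, such as Col1a1, most. With genes weighed equally, their mean log2 signal ranged from 8.82 to 9.01 in R26Pax3/Pax3 and from 9.16 to 9.39 in wild type. The genotypes did not overlap on either measure, but both use the same genes and are not independent. Of all probe sets tested, each taken singly, 2.73% showed no overlap in either direction and 1.35% with the lower values in R26Pax3/Pax3. A sum or mean over 9 genes is an unlike measure, so these shares are not its background. The list was chosen with earlier results of these data known. Of 8 osteoblast markers 6 were measured, 6 of 6 were lower and 0 were called, where 49.7% of all probe sets tested were lower. In limma 3 had an unadjusted p under 0.05, beside 4.86% of all probe sets tested. Within the first 4 arrays deposited 4 of the 6 were lower, and within the last 4 all 6 were. The summed signals of these markers ranged from 12564 to 14399 in R26Pax3/Pax3 and from 14352 to 18564 in wild type, which overlap between single arrays. With the same genes weighed equally, their mean log2 signal ranged from 10.07 to 10.34 and from 10.46 to 10.72, without overlap. Ifitm5, an osteoblast membrane protein, gave 753 ± 110 and 1110 ± 198 (mean ± SD, n = 4 per genotype, log2 fold change -0.55, limma adjusted p = 0.565), and no marker measured was at 0 throughout. The part of bone-forming cells in the lower reading of Ambn was not tested. The lists share Dmp1, Ibsp and Col1a1, so their counts are not independent.

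**Figure D4:**
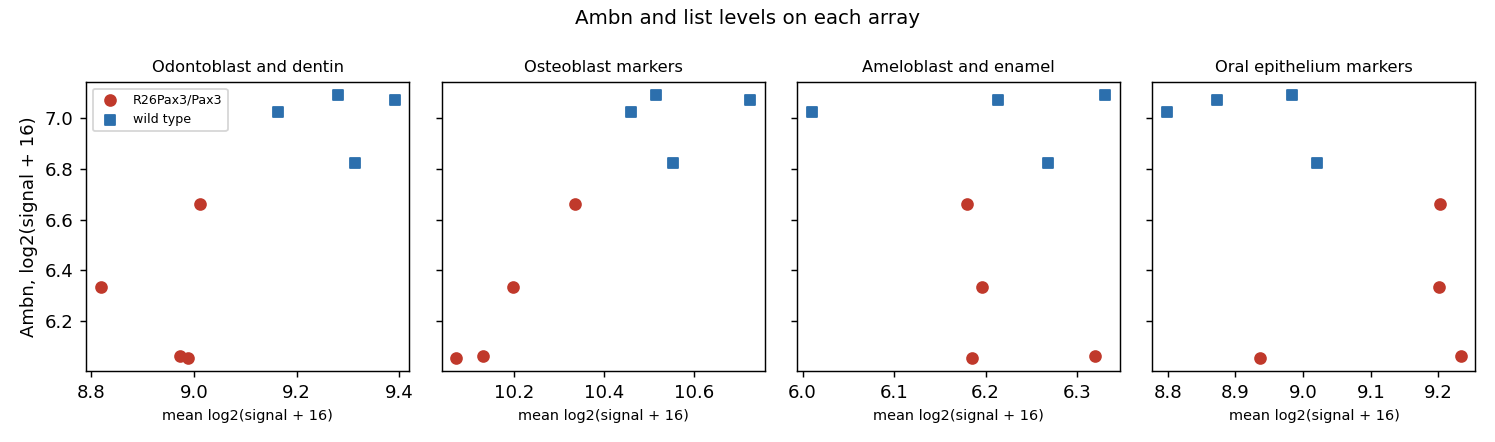
Ambn on each array, as log2 of the signal plus 16, against the mean of the same quantity over the genes of 4 lists (circles, R26Pax3/Pax3; squares, wild type). The mutant arrays lie to the left of the wild type arrays for the odontoblast and osteoblast lists and not for the ameloblast list, and they lie mostly to the right for oral epithelium.

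Other genes of ameloblasts and enamel lay on both sides of 0 or were too dim to test, and their difference from Ambn was not tested. Of 19 listed, 15 had a probe set of their own and 9 were tested, 6 higher and 3 lower. Their median log2 fold change was 0.10, and 49.7% of all probe sets tested were lower. In limma 0 were called and 1 had an unadjusted p under 0.05, beside 4.86% of all probe sets tested. That 1 was Lama3, a laminin chain of epithelial basement membranes, with 217 ± 43.4 against 165 ± 28.7 (mean ± SD, n = 4 per genotype, log2 fold change 0.36, limma adjusted p = 1). Alpl, the alkaline phosphatase of mineralising cells, gave -0.25, and -0.15 without wild type replicate 11, and Cnnm4, a magnesium transporter needed for enamel, gave 0.32. Tuft1, which encodes tuftelin, read 115 ± 26 against 111 ± 34.5. Besides Amtn and Klk4, Slc24a4, Fam20a and Itgb6 were below the median on all 8 arrays. Odam, which late ameloblasts also make, was below it on 6 of 8.

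Among tested genes of the early dental epithelium and its signalling centre, the enamel knot, more read higher than lower in R26Pax3/Pax3, with none called. Of 19 listed, 17 had a probe set of their own and 14 were tested, 11 higher and 3 lower. Their median log2 fold change was 0.17, and 49.7% of all probe sets tested were lower. In limma 0 were called and 2 had an unadjusted p under 0.05, beside 4.86% of all probe sets tested. These were the BMP and Wnt antagonist Sostdc1, at 0.83 (limma adjusted p = 0.599), and Wnt6, a Wnt ligand of oral epithelium, at 0.33 (limma adjusted p = 0.996). Isl1, a homeobox gene of incisor epithelium, gave 0.29 (limma adjusted p = 1). The enamel knot genes Fgf4, Fgf20, Wnt10b and Dkk4 were below the array median on all 8 arrays. Shh, expressed in dental epithelium and in the palatal rugae, read 304 ± 78.1 in mutant arrays and 341 ± 37.8 in wild type arrays (mean ± SD, n = 4 per genotype, log2 fold change -0.18, limma adjusted p = 1).

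Of the 16 markers of oral epithelium, all measured, 13 were higher and 3 lower, where 49.7% of all probe sets tested were lower. Their median log2 fold change was 0.21, with 0 called and 4 at an unadjusted p under 0.05, beside 4.86% of all probe sets tested. This list shares Trp63 with that of the early dental epithelium. Within the first 4 arrays deposited 5 of the 16 were lower, and within the last 4 it was 1. Their summed signal ranged from 9190 to 12311 in R26Pax3/Pax3 and from 8902 to 10354 in wild type, with overlap, and no marker was at 0 throughout. With each gene read by its brightest probe set, Sfn, the 14-3-3 protein of stratified epithelia, had the smallest p, with 154 ± 10.4 against 99.6 ± 12.8 and no overlap (mean ± SD, n = 4 per genotype, log2 fold change 0.56, limma adjusted p = 0.378). Another probe set of the keratin Krt14, 1460347_at, had a smaller one, with a log2 fold change of 0.73 and no overlap (limma adjusted p = 0.269). Among the brightest, Dsp, a desmosome protein, gave 0.29 (limma adjusted p = 0.965) and the keratin Krt15 gave 0.07 (limma adjusted p = 1). Other probe sets of Dsp differed in direction, with 0.32 for 1427610_at and -0.12 for 1435493_at. The part of the epithelial share in the readings of the early dental epithelium was not tested.

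Genes of dental mesenchyme, which teeth share with the palate, showed no common direction. All 18 had a probe set of their own and 16 were tested, 9 higher and 7 lower. Their median log2 fold change was 0.07, and 49.7% of all probe sets tested were lower. In limma 0 were called and 2 had an unadjusted p under 0.05, beside 4.86% of all probe sets tested. The 2 were Bmp4, the ligand that signals between dental epithelium and mesenchyme, at 0.37 with no overlap between genotypes (limma adjusted p = 0.599), and Osr2, a transcription factor that limits tooth number, at 0.34 (limma adjusted p = 1). Msx1, a homeobox gene of dental and palatal mesenchyme, gave 0.45 (limma adjusted p = 1), and 0.22 without wild type replicate 6 or 0.30 without mutant replicate 3. Fgf3 and Fgf10 were below the median on all 8 arrays.

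**Figure D5:**
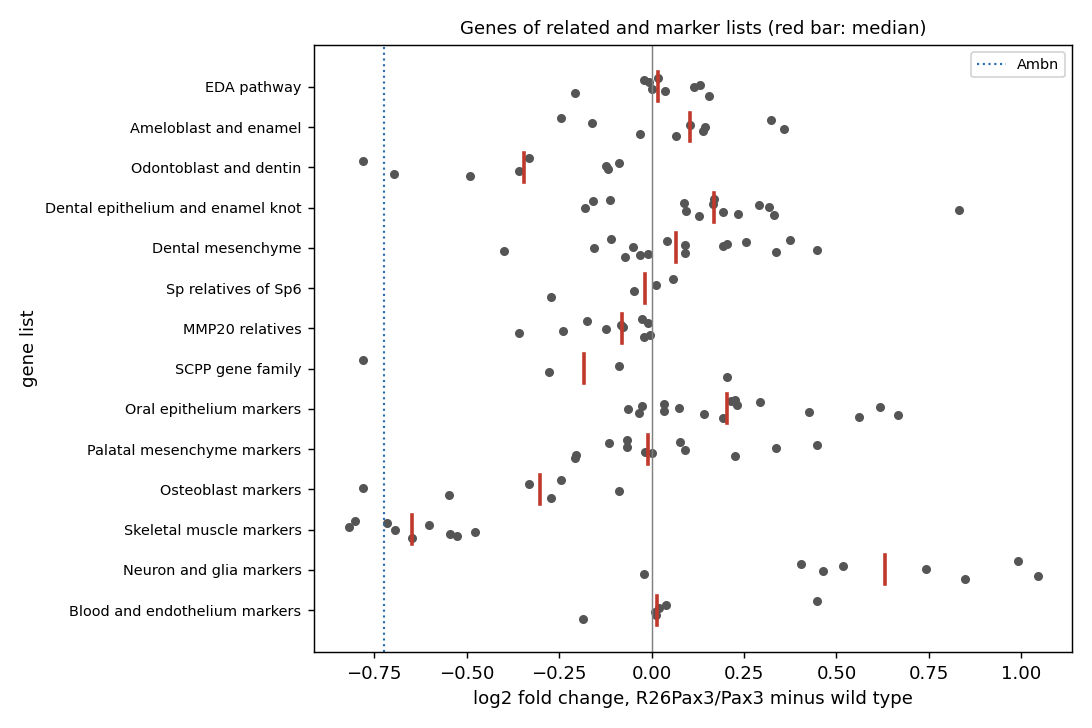
Log2 fold change (R26Pax3/Pax3 minus wild type) of each tested gene, by list, with a red bar at the list's median, a grey line at 0 and a dotted line at the value of Ambn, -0.72. All 8 tested genes of the odontoblast and dentin list, which odontoblasts share with bone cells, lie to the left of 0. Of the dental epithelium and enamel knot list, 11 of 14 lie to the right. Over all probe sets tested, 49.7% were lower.

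Relatives of the members were read from lists chosen with earlier results of these data known, which are not whole families. Of the Sp factors related to Sp6, 4 of 8 were tested, 2 higher and 2 lower, with 0 called and none at an unadjusted p under 0.05. Sp7, or osterix, of bone-forming cells gave -0.27 (limma adjusted p = 1), and -0.14 without wild type replicate 11. Of 11 metalloproteinases and inhibitors related to Mmp20 or acting on its family, 10 were tested and 10 were lower on the brightest probe set of each gene, where 49.7% of all probe sets tested were lower. Their median log2 fold change was -0.08, with 0 called and 1 at an unadjusted p under 0.05, beside 4.86% over all probe sets. Over all 25 tested probe sets of these genes 20 were lower and 5 higher, and within the first 4 arrays deposited 4 of the 10 genes were lower. That 1 was the inhibitor Timp1, with 208 ± 23.1 against 271 ± 30.9 and no overlap (mean ± SD, n = 4 per genotype, log2 fold change -0.36, limma adjusted p = 0.864). Ambn, Amelx, Enam and Dspp belong to a family of secreted calcium-binding phosphoproteins. Of 11 relatives and casein genes of that family, 4 were tested, 1 higher and 3 lower, where 49.7% of all probe sets tested were lower. None was called and 3 had an unadjusted p under 0.05, beside 4.86% of all probe sets tested. These were Dmp1, Sparcl1 and Sparc, the matrix protein osteonectin, at -0.28 (limma adjusted p = 0.977). Dmp1 and Ibsp, also tested here, were counted in the odontoblast and osteoblast lists too, so these counts are not independent.

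Markers of the other cell types that shelves can hold were read as well. Of 10 skeletal muscle markers 9 were tested and 9 were lower, where 49.7% of all probe sets tested were lower. Their median log2 fold change was -0.65, but their summed signal spread from 905 to 6647 in R26Pax3/Pax3 and from 2904 to 7727 in wild type. The lowest was mutant replicate 7, whose mean log2 signal over these genes was 6.17, where the other mutant arrays gave 7.53, 8.25 and 8.57 and the wild type arrays 7.48, 8.28, 8.37 and 8.74. Within the first 4 arrays deposited, which do not hold it, 5 of the 9 were lower, and the actins Acta1 and Actc1 gave -0.05 and 0.10. Of 10 neuron and glia markers 8 were tested and 7 were higher, with a median of 0.63. In limma 3 had an unadjusted p under 0.05, beside 4.86% of all probe sets tested. The summed signals of these markers ranged from 1216 to 1895 in R26Pax3/Pax3 and from 616 to 1980 in wild type. The lowest were wild type replicates 2 and 11, both among the last 4 arrays deposited, with mean log2 signals of 6.16 and 6.33. Wild type replicates 6 and 8 gave 7.65 and 7.015, and the mutant arrays 7.08 to 7.67. Of 9 blood and endothelium markers 6 were tested and 5 were higher, with a median of 0.01 and summed signals from 1361 to 1675 and from 1242 to 1511. No member of the 3 sets was called or was at 0 throughout, and Ckm and Hba-a1 lay below the median on all 8 arrays. Hba-a1 was read on 1 probe set only, since probe sets with several symbols were not read, so its globin is not measured as a whole. Alas2, of the same list, lay above the median on all 8 arrays. The part of these cells in the readings of the tooth genes was not tested.

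For the members above the array median throughout, the genes with the most similar course over the 8 arrays were found among 22766 tested probe sets with a single symbol. Ambn was followed most closely by Mdh1b (Pearson's r 0.97, Spearman's rho 0.91), Pigu (0.97 and 0.93) and Cxcl13 (0.96 and 0.88). Mdh1b lay below the array median on 6 of 8 arrays and Cxcl13 on 5 of 8, among them all 4 mutant arrays for both. Such values cannot be told from background. Eda, on 1449524_at, was followed by C1galt1 (0.96 and 0.93), Plbd2 (0.96 and 0.74) and Yipf7 (0.95 and 0.98). With 8 arrays and so many candidates, these values describe the arrays and carry no test. Pigu, an enzyme subunit of GPI anchor attachment, was picked for its likeness to Ambn, whose genotypes did not overlap. A gap between genotypes in Pigu follows in large part from that choice and is no separate finding. Its groups stood apart, with 182 ± 12.8 in R26Pax3/Pax3 and 215 ± 5.55 in wild type (mean ± SD, n = 4 per genotype, log2 fold change -0.23, limma adjusted p = 0.995).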

How the data were processed

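Total RNA of palatal shelves was hybridised to Affymetrix arrays, per the labels. The deposited values are linear intensities, 1 per probe set, from MAS5 (version not given), per the submitters' processing notes. A mean trimmed by 2% at both ends came to 150 on every array, so a change shared by most genes would be hidden. Signals were taken as log2(signal + 16), 64 control probe sets were left out, and only probe sets with a mean over the 40th percentile were tested. The test was limma 3.58.1 in R 4.3.3 (lmFit, eBayes with an intensity trend, no covariate), with Benjamini-Hochberg adjustment over 27022 probe sets. Fold changes understate those of dim genes. The number of arrays limits the precision. The procedure was run on simulated data in which changes were set only in probe sets brighter than any member. That run does not cover signals as dim as those of the members. Gene names came from the array annotation, in which 34945 probe sets had 1 symbol, 932 several and 9160 none; list genes that have none with a single symbol were not analysed here. Gene order and promoters came from RefSeq (GRCm38.p6). The members and the gene lists were chosen with earlier results of these data known. All members were named, with up to 3 genes per related list by smallest p, up to 2 marker genes each by signal and by p, and the 3 genes most like a member above the median throughout. Neighbouring genes, further list members named with their values and Pax3 were chosen after values were seen. Alternatives were another pseudocount, filter, normalization or variance model, a block for deposited order, and leaving out each array.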

Additional observations from a re-analysis of the deposited data

Results flagged for a closer look

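Among 36 sets of 4 arrays (18 probe sets in 2 genotypes), 3 held an array far from the other 3, by the gap to its nearest neighbour relative to the range (Dixon's test at the 95% level). Chance gives about 1 in 20. R26Pax3/Pax3 replicate 7 read 15.9 on 1451614_a_at of Amelx, against 10.9 to 11.7 in the others. R26Pax3/Pax3 replicate 3 read 27.6 on 1442342_at of Sp6, against 18.4 to 18.8. R26Pax3/Pax3 replicate 1 read 2 on Dspp, against 0.6 to 0.8. All 3 probe sets lay below the array median on all 8 arrays, where values cannot be told from background.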

How the results depend on the processing

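With other pseudocounts (4 and 64), no filter, a filter at the 60th percentile, quantile normalization, no intensity trend, the deposited order as a block and each array left out in turn, 0 member probe sets and 0 related list genes were called. Ambn stayed lower throughout, with log2 fold changes from -0.85 to -0.48 and adjusted p from 0.18 to 1. Leaving out 1 array gave -0.85 to -0.65 for Ambn, 0.18 to 1.04 for Sp6 (1437788_at), -0.19 to -0.03 for Eda 1449524_at, -0.156 to 0.068 for Eda 1419597_at and -0.175 to 0.123 for Eda 1451925_at, so the last 2 changed sign. With a pseudocount of 64 the value of Eda 1451925_at was 0.00, on the other side of zero. The median over tested members lay between -0.17 and 0.01 when an array was left out, and was -0.42 with the filter at the 60th percentile, which left fewer members. Over all probe sets there were 4 calls under each setting that kept all arrays and 4 to 9 with 1 array left out, the highest without R26Pax3/Pax3 replicate 3. The settings for related list genes were chosen after seeing the data. For 28 of those genes none changed direction or call. No paired analysis was possible because the sample labels do not name the litter of each sample and the genotypes share no replicate number. A difference between litters was therefore not tested. Dim signals limit 13 of the 18 probe sets, for which no size is given.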
